A study of Mus musculus with 4 samples.

Results

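Sinusoidal endothelial cells of the bone marrow take up circulating macromolecules and guide blood cells through the vessel wall, and 9 genes linked to these roles were followed in single-cell RNA libraries from mouse limb marrow. They were the scavenger receptors Stab1, Stab2 and Mrc1, the lysosomal protease Ctsl, the vessel identity genes Clca3a1 and Ackr1, and the secreted proteins Lrg1, Tfpi and Adamts5. The 9 symbols were each found once among the 32285 genes counted. Their UMIs (unique molecular identifiers, counts of single captured RNA molecules) were summed over endothelial cells, which were 1697 of the 16658 cells kept. A cell was kept with 1000 or more UMIs, 500 or more genes and no more than 10% of its UMIs from mitochondrial genes. It was called endothelial when it held a UMI of 3 or more of the 5 genes Cdh5, Pecam1, Egfl7, Emcn and Kdr.

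The cells came from C57BL/6 mice at postnatal day 12, sorted as live cells without the blood markers CD45 and Ter119. There were 2 control libraries, whose alleles the labels do not give, and 2 mutant libraries from Prx1-cre;Mettl3-fl/fl mice, with mutant 2 labelled only as mutant. Prx1-cre is known for its activity in limb mesenchyme, and Mettl3 encodes the enzyme that writes N6-methyladenosine on RNA. The labels name 3 mice of each genotype without tying them to libraries. Libraries were thus the units tested, and the spread among them is perhaps partly technical. Library 1 of each genotype belonged to one processing batch and library 2 to the other, by the software version in the submitters' notes. In endothelial cells Mettl3 stood at 23.5 CPM (UMIs per 1000000 UMIs of the cells summed) in control 1 and 19.8 in control 2, against 16.8 in mutant 1 and 17.1 in mutant 2 (log2 difference -0.24, edgeR adjusted p = 0.9999). In cells with osteolineage markers it stood at 6.52 and 8.76 CPM in controls against 3.77 and 6.05 CPM in mutants. Whether the captured 3′ end lies in the floxed part of Mettl3 is not given, so these values do not check the labels.

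Liver, spleen, lymph node and marrow sinusoids share a scavenging program. The stabilins Stab1 and Stab2 and the mannose receptor Mrc1 bind modified proteins and glycans at the surface and carry them into endosomes, and lysosomal proteases such as cathepsin L then degrade the cargo. Venous and sinusoidal endothelium is also known for proteins that present chemokines, adjust growth factor signalling and limit clotting at the vessel wall.

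The files held 47390414 to 116863081 UMIs per library, and 2628 to 4587 cells were kept per mutant and 3635 to 5808 per control. The endothelial cells were uneven: control 1 and control 2 had 33 and 572, and mutant 1 and mutant 2 had 48 and 1044, with medians of 6320, 8248, 6234 and 10145 UMIs per cell in that order. All 5 gate genes were found in every library. They summed to 4129 and 4607 CPM in control 1 and control 2, against 5454 and 5348 CPM in mutant 1 and mutant 2. Emcn stood at 626 and 579 CPM in controls against 895 and 1050 CPM in mutants. Cdh5, Pecam1 and, narrowly, Egfl7 were also higher in both mutants. Kdr overlapped, at 739 and 1020 CPM in controls against 654 and 854 CPM in mutants. What part this has in the cells taken was not tested. The 5 macrophage markers summed to 0 CPM in control 1 and mutant 1, 5.17 in control 2 and 4.99 in mutant 2. The libraries stood apart in RNA of other cells. Neutrophil markers summed to 9121 CPM in the endothelial cells of mutant 2 and to 0 to 86.7 CPM in the others. Osteolineage markers summed to 2012 CPM in mutant 2 and 788 in mutant 1 against at most 50.8 in the controls. Stromal markers were highest in control 1, at 1677 CPM against 158 to 358 CPM in the other libraries. Between 2 and 10 cell barcodes were shared by any pair of libraries.

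Promoters are printed for Stab1 and Stab2, the paralogous stabilins, and for Clca3a1 and Ackr1, the members with the largest differences between genotypes. Each is the RefSeq window of 300 bases on GRCm38.p6, from 250 bases before the annotated start to 50 after it, read 5′ to 3′ on the gene's own strand. Capitals mark the ETS core AGGAAG or CGGAAG on either strand, since ETS factors are known regulators of endothelial genes. The windows lie at chr14:31168592-31168891 (Stab1), chr10:87007893-87008192 (Stab2), chr3:144760928-144761227 (Clca3a1) and chr1:173333454-173333753 (Ackr1), all on the minus strand. The starts are those of RefSeq and do not always match the GENCODE gene positions given below. By GENCODE the Ackr1 gene spans chr1:173331886-173333750, so nearly all of its window lies inside the gene.
Stab1: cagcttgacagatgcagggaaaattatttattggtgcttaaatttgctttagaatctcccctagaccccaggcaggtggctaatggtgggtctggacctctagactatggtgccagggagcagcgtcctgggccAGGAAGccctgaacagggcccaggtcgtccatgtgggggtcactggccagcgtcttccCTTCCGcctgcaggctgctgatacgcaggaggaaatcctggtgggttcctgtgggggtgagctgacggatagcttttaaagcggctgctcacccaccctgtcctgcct
Stab2: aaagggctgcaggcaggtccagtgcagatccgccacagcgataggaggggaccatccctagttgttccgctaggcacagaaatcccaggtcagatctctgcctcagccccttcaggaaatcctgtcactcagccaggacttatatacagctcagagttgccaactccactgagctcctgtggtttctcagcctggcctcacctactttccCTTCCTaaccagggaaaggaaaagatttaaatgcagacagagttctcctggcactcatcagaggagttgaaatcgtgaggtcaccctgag
Clca3a1: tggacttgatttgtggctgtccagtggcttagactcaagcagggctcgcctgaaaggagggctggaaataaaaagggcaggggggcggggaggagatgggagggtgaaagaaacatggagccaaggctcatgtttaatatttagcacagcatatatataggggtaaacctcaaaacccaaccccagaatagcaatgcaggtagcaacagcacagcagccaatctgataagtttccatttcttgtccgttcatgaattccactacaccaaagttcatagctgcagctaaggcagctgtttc
Ackr1: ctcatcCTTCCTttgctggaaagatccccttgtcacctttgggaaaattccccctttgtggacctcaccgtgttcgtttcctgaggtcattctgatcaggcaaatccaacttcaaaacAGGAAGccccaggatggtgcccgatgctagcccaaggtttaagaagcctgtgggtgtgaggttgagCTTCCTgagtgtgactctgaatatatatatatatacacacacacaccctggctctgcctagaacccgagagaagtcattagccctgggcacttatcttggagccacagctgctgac
AGGAAG, on either strand, was found in the windows of 6 of the 8 members that had one and in 35.4% of all 32851 RefSeq windows of that length. It occurred 3 times in the windows of Ackr1 and Mrc1 and 4 times in that of Lrg1. It was absent from those of Ctsl and Clca3a1. CGGAAG was found for Stab1 alone, against 16.9% of all windows. The GATA motif AGATAA was found for Ackr1 and in 1 of 2 Tfpi windows, against 11.2% of all windows. The matches in the printed windows did not overlap. They describe letters only, and no binding was measured.

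The level of all 9 genes in endothelial cells was lower in both mutant libraries than in both controls. In the fit across all genes each of the 9 passed the test as lower in mutants (edgeR quasi-likelihood test with batch as a term, Benjamini-Hochberg over 11261 genes), where 2.99% of all tested genes were called lower. The CPM of both mutants lay below that of both controls for 21.5% of tested genes. The 9 genes were chosen with earlier results of these data known, so setting them against these shares is a description only. The median difference over the 9 genes was -2.15 on the log2 scale, against -0.01 over all genes tested. The 9 differences ran from -3.11 to -0.79. Within batch 1 they ran from -4.29 to -1.20 and within batch 2 from -2.78 to -0.49, with no test.

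**Figure D1:**
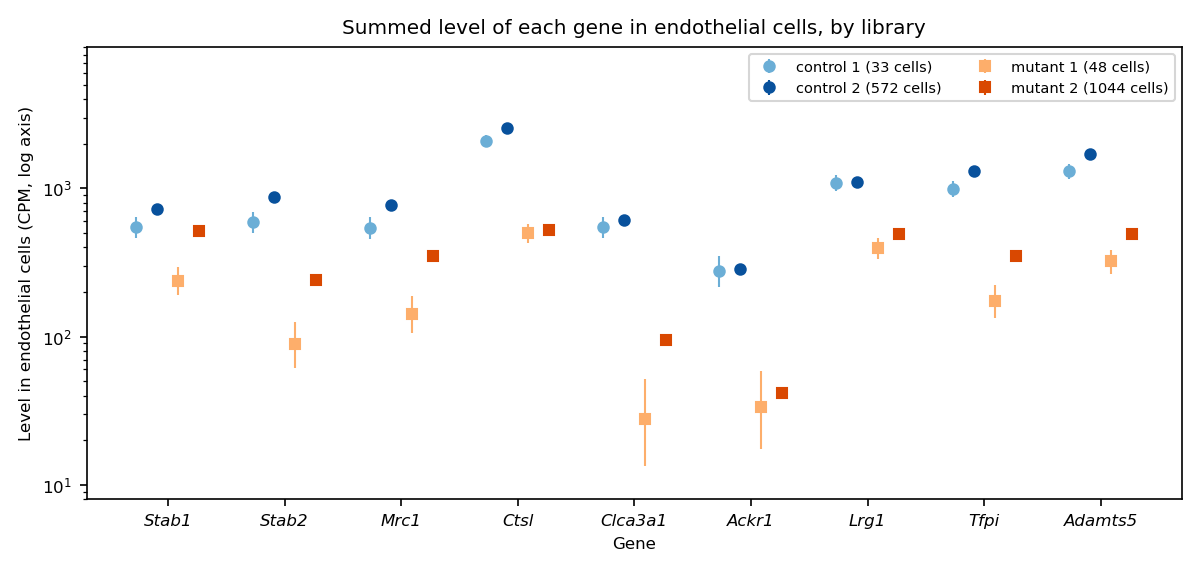
Level of each gene in the summed endothelial cells of each library, in CPM on a log axis. Circles are controls, squares are mutants and bars are exact 95% Poisson intervals, which cover counting error only. For every gene both squares lie below both circles, and in mutants Clca3a1 and Ackr1 stood at 28.0 to 95.04 CPM.

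Among the surface receptors, Stab1 (stabilin 1, ENSMUSG00000042286, chr14:31139013-31168641, minus strand) binds modified lipoproteins and matrix fragments. Control 1 and control 2 held 547 and 721 CPM, mutant 1 and mutant 2 238 and 513 CPM. Mutant 2 lay just under control 1, and the fitted difference was the smallest of the 9, at -0.79 (SE 0.22, edgeR adjusted p = 0.0058). Stab2 (stabilin 2, ENSMUSG00000035459, chr10:86841198-87008025, minus strand) is the main hyaluronan clearance receptor of sinusoids. Its levels were 590 and 877 CPM in the controls against 89.5 and 240.4 CPM in the mutants, so the higher mutant was well under the lower control. The fitted difference was -2.18 (SE 0.22, edgeR adjusted p = 8.2e-20), or 4.53-fold lower. Mrc1 (mannose receptor CD206, ENSMUSG00000026712, chr2:14229392-14332057, plus strand) clears glycoproteins with exposed mannose. It was at 543 and 769 CPM in controls against 143 and 351 CPM in mutants, a difference of -1.44 (SE 0.22, edgeR adjusted p = 3.2e-09). Mrc1 is also known as a macrophage gene. Of 5 macrophage markers (C1qa, C1qb, Adgre1, Csf1r and Cd68), all were at 0 UMIs in the endothelial cells of control 1 and mutant 1. They summed to 5.17 CPM (28 UMIs, all 5 found) in control 2 and 4.99 CPM (58 UMIs, all but Adgre1 found) in mutant 2. Mrc1 overlaps Mir511 on its own strand.

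Ctsl (cathepsin L, ENSMUSG00000021477, chr13:64359337-64370890, minus strand) stood at 2092 CPM in control 1 and 2576 in control 2, and at 498 and 525 CPM in mutants 1 and 2. The libraries of a genotype lay close together and the genotypes far apart. The difference was -2.18 (SE 0.21, edgeR adjusted p = 1.1e-21), or 4.52-fold lower. In the annotation Ctsl overlaps Gm49230 on the same strand, and the sources used here do not say how the counting shared such reads.

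The vessel identity genes differed most. Clca3a1 (a secreted CLCA family protein, ENSMUSG00000056025, chr3:144729677-144760977, minus strand) is a known marker of lymphatic and some venous endothelium. It stood at 547 and 612 CPM in controls against 28.0 CPM in mutant 1, which rests on 10 UMIs (95% Poisson interval 13.4 to 51.4 CPM), and 95.04 CPM in mutant 2. The difference was -3.11 (SE 0.23, edgeR adjusted p = 8.6e-38), or 8.63-fold lower. The near-identical neighbour Clca3a2, which can share reads with it, had 0, 2, 0 and 1 UMIs in control 1, control 2, mutant 1 and mutant 2. Ackr1 (the atypical chemokine receptor also called Duffy antigen, ENSMUSG00000037872, chr1:173331886-173333750, minus strand) carries chemokines across venules. It was at 278 and 285 CPM in controls against 33.5 CPM (12 UMIs) and 41.5 CPM in mutants. The difference was -2.83 (SE 0.24, edgeR adjusted p = 4e-30), or 7.1-fold lower. Ackr1 overlaps Cadm3 on the same strand, so its count is uncertain in the same way.

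Of the secreted proteins, Lrg1 (ENSMUSG00000037095, chr17:56119678-56122001, minus strand) is a glycoprotein that alters endothelial TGF-beta signalling. Its levels were 1087 and 1110.0 CPM in controls against 394 and 495 CPM in mutants, a difference of -1.29 (SE 0.21, edgeR adjusted p = 9.9e-08). Tfpi (tissue factor pathway inhibitor, ENSMUSG00000027082, chr2:84432855-84476775, minus strand) blocks the start of coagulation. It stood at 989 and 1301 CPM in controls against 173 and 352 CPM in mutants, a difference of -2.15 (SE 0.22, edgeR adjusted p = 1.4e-19). Adamts5 (ENSMUSG00000022894, chr16:85856173-85901828, minus strand) is a metalloprotease that cuts versican and aggrecan. It was at 1302 and 1702 CPM in controls against 322 and 492 CPM in mutants, a difference of -1.88 (SE 0.22, edgeR adjusted p = 5.8e-16). For these 3 genes the control and mutant ranges were separate. A lower level in summed cells does not tell fewer expressing cells from less RNA per cell. The shares of cells given further on do not settle it, since less RNA per cell also lowers the share with a UMI.

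The small p-values rest on 1 residual degree of freedom and on a spread shared by all genes of like abundance (infinite prior degrees of freedom). Every genotype fit that left out 1 library also left out the batch term, so a change there cannot be given to the library alone. Without control 2 no member passed (smallest edgeR adjusted p = 0.078), without control 1 Stab1, Mrc1 and Lrg1 did not pass, and without mutant 1 or without the batch term Stab1 and Mrc1 did not pass. With at least 4 of the 5 gate genes asked for, Stab1 did not pass (edgeR adjusted p = 0.14). With endothelial cells taken by Cdh5, Pecam1 and Egfl7 alone (2 of 3), which raised control 1 from 33 to 72 cells, no member passed (smallest edgeR adjusted p = 0.100) and Stab1 turned to 0.13. DESeq2 called 8 of 9, with Stab1 at an adjusted p of 0.16. Cells that also met the marker rule of another class numbered 7, 60, 5 and 270 in control 1, control 2, mutant 1 and mutant 2. Without them all 9 still passed, at -3.09 to -0.71.

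**Figure D2:**
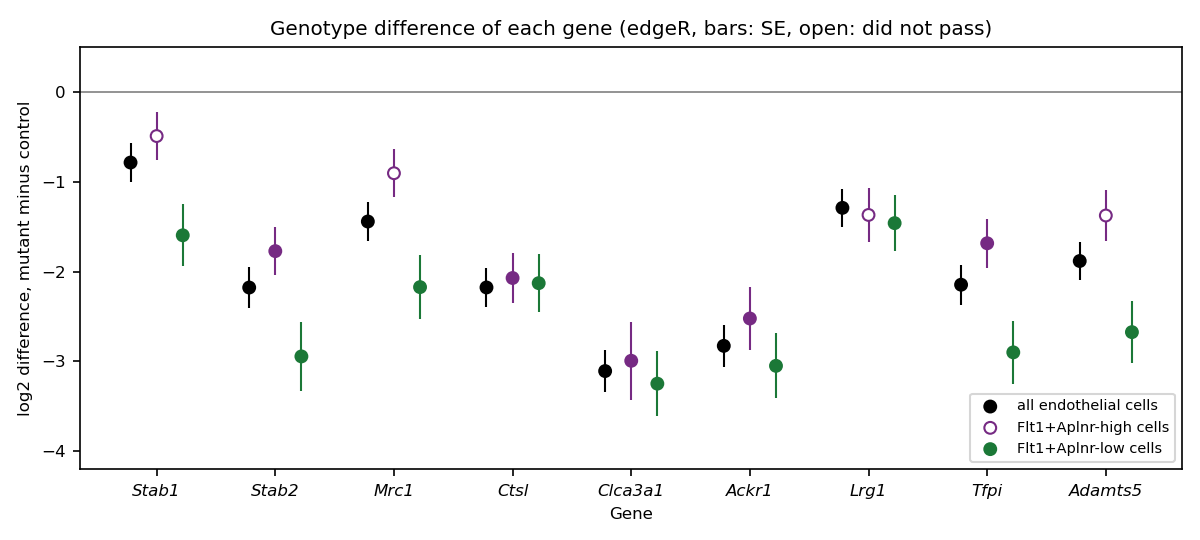
Fitted log2 difference, mutant minus control, with its SE, for all endothelial cells and for cells above (high) or at and below (low) the Flt1+Aplnr cut. Open symbols did not pass the adjusted threshold of 0.05. In all cells and in low cells 9 of 9 genes passed, and in high cells 5 of 9. The fits in all, low and high cells had infinite, 15.1 and 8.37 prior degrees of freedom, so these counts are not directly comparable.

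Shares of cells were compared after each cell was thinned to 3000 UMIs, which left 28, 547, 47 and 914 endothelial cells in control 1, control 2, mutant 1 and mutant 2 and dropped 5, 25, 1 and 130. A UMI of Stab2 was found in 60.7% of cells in control 1, 82.998% in control 2 and 12.8% and 41.2% of mutant cells. Clca3a1 was found in 53.6% and 71.8% of control cells and in 4.26% (2 of 47 cells, exact 95% interval 0.52% to 14.5%) and 16.6% of mutant cells. Ackr1 was found in 28.6% and 49.0% of control cells and 4.26% and 7.22% of mutant cells. The groups were separate for all 9 genes at this depth, by -52.3 points for Clca3a1 to -21.7 points for Ctsl in the difference of the means. Of the 11261 genes tested above, 17.0% had shares in both mutants below those in both controls at this depth. With 2 libraries against 2 the exact two-sided permutation p was 0.333 for each gene, the smallest this design allows. Without thinning, the shares of Stab1 were 84.8% and 96.5% in controls and 60.4% and 86.2% in mutants, which overlap, as did those of Mrc1 and Tfpi.

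In cells that held a UMI, mean counts at 3000 UMIs also differed for Ctsl, at 8.79 and 9.65 UMIs per positive cell in controls and 2.44 and 2.62 in mutants, while 85.7% and 93.4% of control cells and 68.1% and 67.7% of mutant cells were positive. For Stab1 the positive cells held 2.52 and 2.95 UMIs in controls and 1.96 and 2.40 in mutants. In cells with erythroid markers, thinned in the same way, Stab1, Stab2, Mrc1, Lrg1 and Adamts5 were found in at most 0.372% of cells in any library. There, Ctsl was found in 5.96% to 9.09% of cells, Tfpi in 1.30% to 6.04% and Clca3a1 in up to 2.35%. Before thinning these cells held medians of 12678 to 31933 UMIs. Ackr1 is also known from red cells, and its share in cells with erythroid markers (3.72% to 10.4%) was like that in mutant endothelial cells. Erythroid markers summed to 207 and 175 CPM in the endothelial cells of control 1 and control 2. In those of mutant 1 and mutant 2 they summed to 16.8 and 95.8 CPM. What part RNA of erythroid cells has in the Ackr1 shares was not tested.

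**Figure D3:**
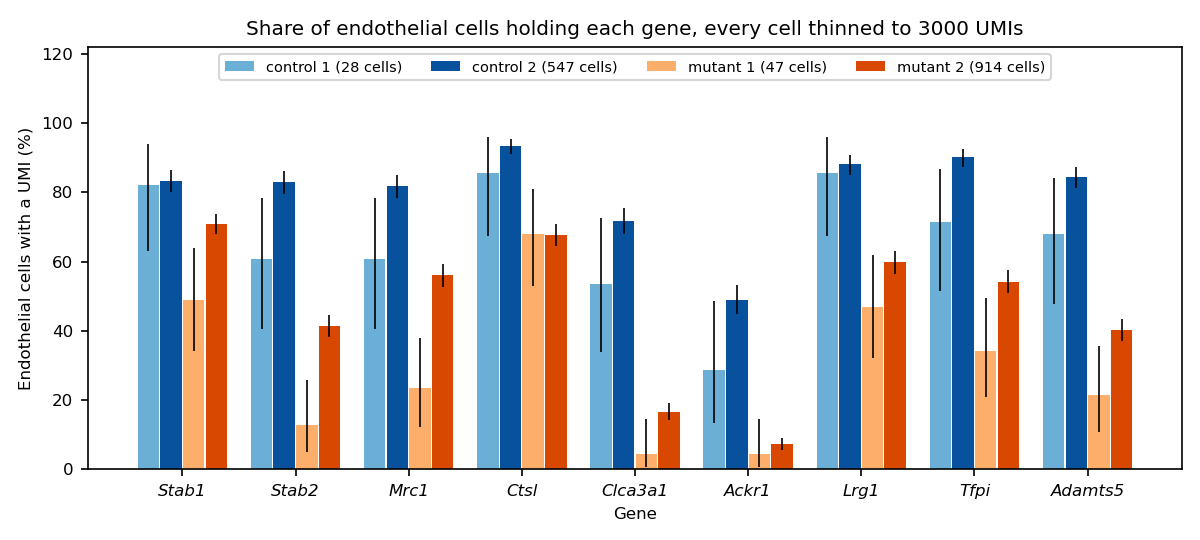
Share of endothelial cells with at least 1 UMI of each gene after thinning every cell to 3000 UMIs, by library, with exact 95% binomial intervals that cover counting error only. Both mutant bars are lower than both control bars for each gene, for example at 4.26% and 16.6% for Clca3a1 and 48.9% and 70.9% for Stab1.

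Most control cells held UMIs of most of the 9 genes. At 3000 UMIs a control endothelial cell held a UMI of a median of 7.5 (control 1) and 8 (control 2) of the 9 genes, and a mutant cell of 2 (mutant 1) and 4 (mutant 2). Cells with 5 or more of the 9 were 64.3% and 89.2% of cells in controls, against 14.9% and 39.9% in mutants. Both stabilins were found in 57.1% and 72.0% of control cells and in 12.8% and 34.5% of mutant cells. The product of the 2 single shares was 49.9% and 69.2% in controls and 6.25% and 29.2% in mutants, so the single shares alone come near the joint share in controls. Among cells with a Stab2 UMI, Stab1 was also found in 94.1% and 86.8% in controls and 100% and 83.6% in mutants. Among cells with a Stab1 UMI, Stab2 was found in 69.6% and 86.4% in controls and in 26.1% and 48.6% in mutants. Cells with Stab1 but no Stab2 UMI were thus a larger part of the Stab1 cells in mutants. These shares were not tested beyond their values by library.

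Endothelial cells were then split by the summed UMIs of Flt1, the VEGF receptor 1 gene, and Aplnr, the apelin receptor gene. The cut was 14.0 UMIs per 10000, the median with each library weighted equally. The high cells were 16 of 33 in control 1 (48.5%), 192 of 572 in control 2 (33.6%), 21 of 48 in mutant 1 (43.8%) and 771 of 1044 in mutant 2 (73.9%). The shares of the genotypes overlapped, with a mean difference of 17.8 points (exact permutation p = 0.667) that was -4.73 points in batch 1 and 40.3 points in batch 2. Between 4 and 78 cells per library lay within 10% of the cut. Because control 1 held under 20 cells on each side, the minimum of 20 cells per sum was lowered to 10 after the numbers of cells were known.

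In high cells 5 of the 9 genes passed as lower in mutants, where 0.374% of 8565 tested genes did (edgeR, batch and genotype). Clca3a1 stood at 530.5 and 569 CPM in high control cells and 14.0 CPM (2 UMIs) and 102 CPM in high mutant cells, a difference of -2.99 (edgeR adjusted p = 0.025). Ctsl stood at 2053 and 2177 CPM in controls against 530.1 and 499.6 CPM in mutants, and Stab2 at 599 and 896 CPM against 167 and 276 CPM. Ackr1 and Tfpi also passed, at -2.52 and -1.69. The other 4 did not pass: Lrg1 at -1.37 (edgeR adjusted p = 0.13), Adamts5 at -1.38 (0.096), Mrc1 at -0.91 (0.39) and Stab1 at -0.49 (0.9997). High cells held 639 and 801 CPM of Stab1 in controls and 439 and 602 CPM in mutants, so the ranges were separate by a narrow gap. Without the cells of other classes, an alternative added later, Lrg1 and Adamts5 passed too (edgeR adjusted p = 0.00027 and 4.8e-05). By DESeq2, without the filter on low counts or with each library's own median as the cut, all but Stab1 and Mrc1 passed. Without the batch term the same 5 as in the main fit passed.

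In low cells all 9 genes passed as lower in mutants, where 1.03% of 10520 tested genes did. Stab1 stood at 487 and 687 CPM in low control cells and 103 and 285 CPM in low mutant cells, a difference of -1.60 (SE 0.35, edgeR adjusted p = 0.013). Stab2 stood at 585 and 869 CPM against 37.3 CPM (8 UMIs) and 149 CPM, a difference of -2.95. Tfpi, at 1019.6 and 1317 CPM against 93.3 and 213 CPM, differed by -2.90, and Adamts5, at 1383 and 1706 CPM against 159 and 316 CPM, by -2.68. Neutrophil markers summed to 20421 CPM in the low cells of mutant 2 and 4718 CPM in its high cells, and osteolineage markers to 6770 and 158 CPM. Without the cells of other classes all 9 genes still passed in low cells, at -2.95 to -1.35. Without control 2 none of the 9 passed in low cells (smallest edgeR adjusted p = 0.093), and without control 1 Stab1, Mrc1 and Lrg1 did not. Without the batch term Stab1, Stab2, Mrc1 and Lrg1 did not pass (largest edgeR adjusted p = 0.27), and Stab1 did not pass without mutant 1 (0.32) or with each library's own median as the cut (0.12).

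Within libraries, high minus low, none of the 9 genes passed (edgeR with library as a block), while 7.05% of 8564 tested genes did in either direction. Stab1 (0.73, edgeR adjusted p = 0.069) and Lrg1 (0.45, edgeR adjusted p = 0.12) were the 2 with an unadjusted p below 0.05, and DESeq2 called none. The other 7 ran from -0.29 (Ackr1) to 0.43 (Stab2). Of the sprouting and metaphyseal vessel genes, 6 of 13 tested passed as higher in high cells (5 by DESeq2), where 1.84% of all genes did, among them Ramp3 at 1.61 (edgeR adjusted p = 0.0038). Without control 1 Stab1 passed, without the filter on low counts Stab1, Lrg1 and Adamts5 passed, scaled by total counts alone Stab1 passed, and with the gate of Cdh5, Pecam1 and Egfl7 alone 6 members passed as higher in high cells, all but Ctsl, Clca3a1 and Ackr1.

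The high minus low difference itself differed between genotypes for 4 of the 9 genes, where 0.134% of 9724 tested genes were called in that direction. Adamts5 went from 1383 and 1706 CPM in low to 1179 and 1693 CPM in high control cells, and from 159 and 316 to 565 and 561 CPM in mutants, an interaction of 1.24 (SE 0.26, edgeR adjusted p = 0.00048). The interactions of Tfpi, Mrc1 and Stab1 were 1.16 (edgeR adjusted p = 0.0064), 1.20 (0.014) and 1.05 (0.043). In these 4 genes both mutants had higher levels in high than in low cells, and the controls moved by less. Stab2 did not pass, at 1.05 (edgeR adjusted p = 0.080), nor did Ctsl (0.04), Clca3a1 (0.24), Ackr1 (0.67) and Lrg1 (0.12). DESeq2 called none of the 9. The edgeR p-values of the interaction rest on 2 residual degrees of freedom and infinite prior degrees of freedom. None passed without control 1, without mutant 1, or without cells of other classes, where the 4 lay between 0.83 and 0.92 (edgeR adjusted p = 0.54 to 0.80).

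**Figure D4:**
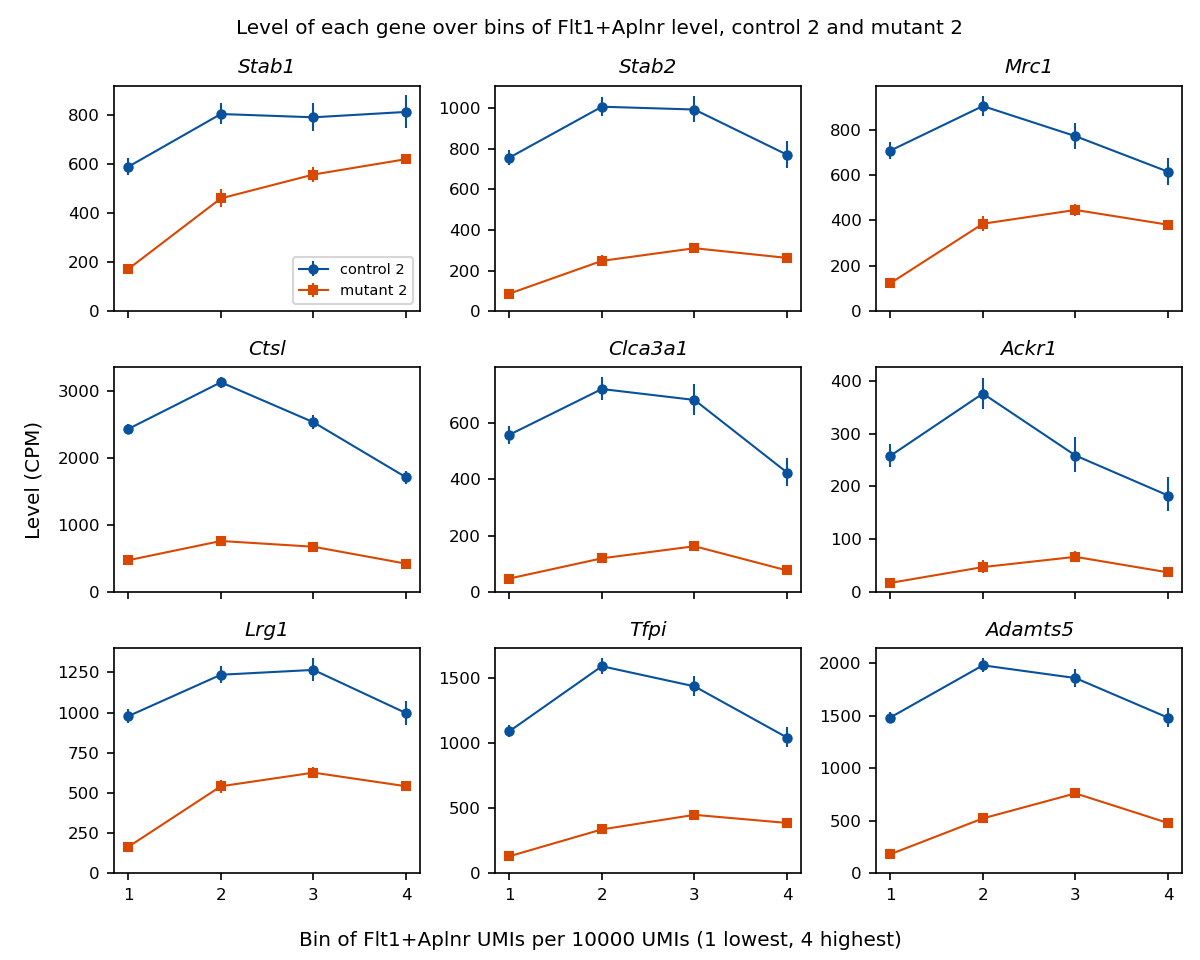
Level in CPM of each gene in endothelial cells of control 2 and mutant 2, in 4 bins of Flt1+Aplnr UMIs per 10000 (edges 8.39, 14.0 and 20.1), with exact 95% Poisson intervals. In every bin the mutant line lies below the control line; for Stab1 the mutant goes from 172 CPM in the lowest bin to 621 CPM in the highest.

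The 4 bins held 86 to 191 cells in control 2 and 121 to 570 in mutant 2, while control 1 and mutant 1 had 2 to 15 cells a bin and are not drawn. Stab1 in mutant 2 stood at 172, 460.5, 558 and 621 CPM from the lowest to the highest bin, and in control 2 at 590, 805, 792 and 813 CPM. Ctsl in control 2 was highest in the second bin, at 3129 CPM, and lowest in the fourth, at 1712 CPM. Ctsl in mutant 2 lay between 426 and 764 CPM in all bins. Ackr1 went from 376 CPM in the second bin of control 2 to 183 CPM in the fourth. These are values of 1 library per genotype, with no test.

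Outside the endothelial cells the genes were low, with exceptions by cell type. Stab1 and Stab2 were at most 4.78 and 7.05 CPM in any library's cells with neutrophil, erythroid, stromal, osteolineage or chondrocyte markers. Mrc1 was at 302, 206 and 216 CPM in the 2, 1 and 4 cells with macrophage markers of control 1, mutant 1 and mutant 2, too few for a comparison. Ctsl was found in cells with stromal markers at 670.5 and 627 CPM for controls against 645 and 356 CPM for mutants, and in cells with osteolineage markers at 341, 270.5, 588 and 452 CPM in control 1, control 2, mutant 1 and mutant 2. The genotypes overlapped in the former class, where mutant 2 rests on 10 cells, and both mutants were above both controls in the latter. Adamts5 stood at 228 to 380 CPM in cells with stromal markers, Lrg1 at 92.9 to 254 CPM in cells with neutrophil markers, and Clca3a1 at 35.4 to 75.5 CPM in cells with megakaryocyte markers of the 3 libraries with over 10 such cells. Barcodes of 10 to 100 UMIs, a sample of free RNA, held 7.43, 35.8 and 70.0 CPM of Stab1 and 113, 121 and 260 CPM of Ctsl in control 1, control 2 and mutant 2. Free RNA of Clca3a1 and Ackr1 was at most 22.02 CPM.

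**Figure D5:**
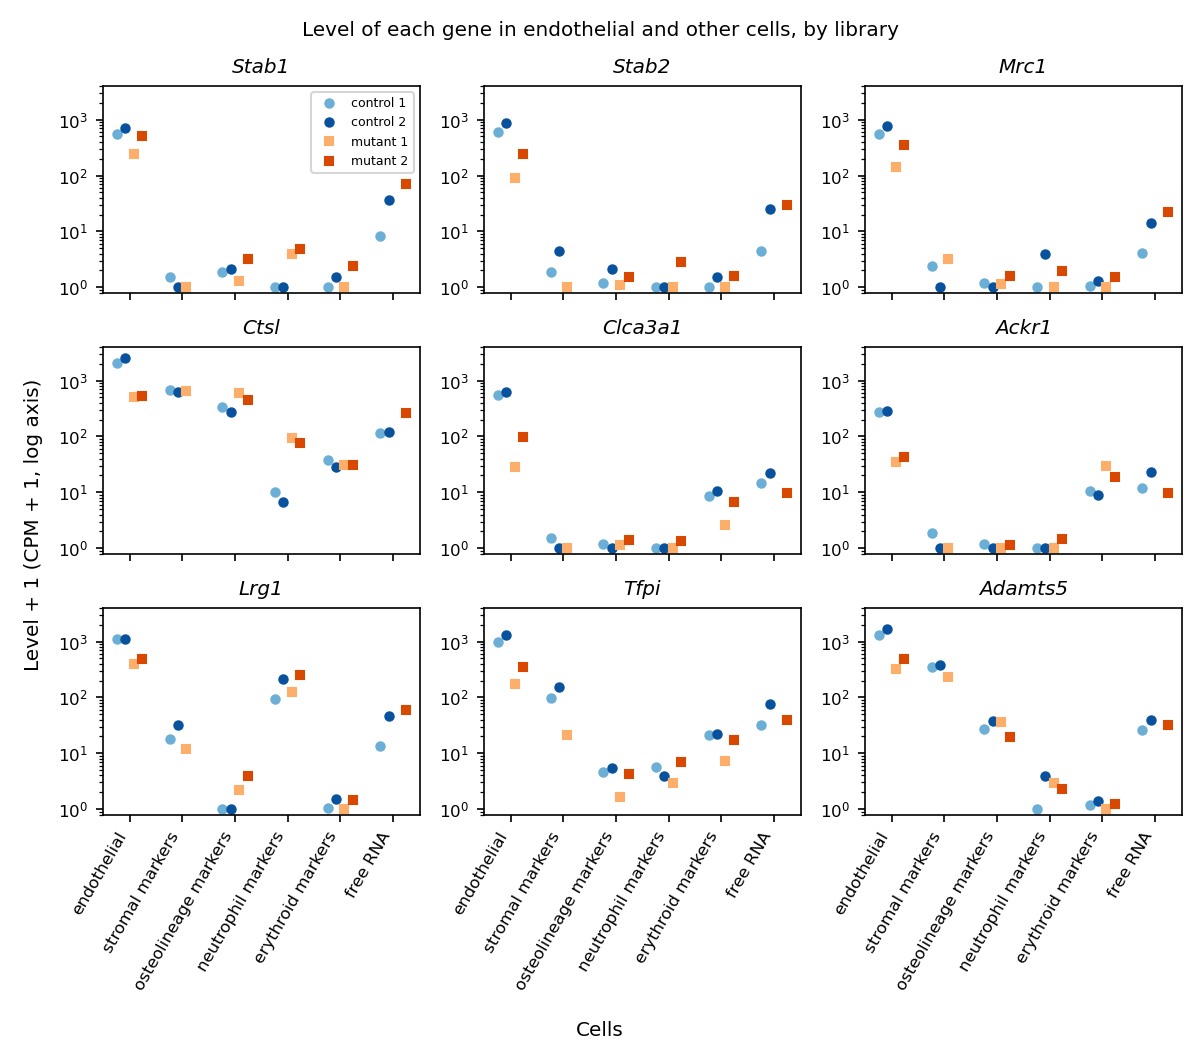
Level plus 1 in CPM, on a log axis, of each gene in endothelial cells, in cells with markers of 4 other classes and in barcodes of 10 to 100 UMIs (free RNA, not listed for mutant 1), by library. Stromal cells of mutant 2 are left out because there were 10. Ctsl, Ackr1, Lrg1, Tfpi and Adamts5 have levels above 20 CPM in at least 1 of these 4 classes, while Stab1, Stab2, Mrc1 and Clca3a1 do not.

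The genes whose pattern was most like each member were found from the Pearson r of log2(CPM + 1) over 27 sums of cell class and library, among 11380 genes. The sums share libraries, and r mostly reflects endothelial against other cells, so it is a description only. Here the minimum of 20 cells per sum was kept, so the high and low endothelial cells of control 1 were left out. Nearest to Stab1 were D030007L05Rik (r = 0.98), Aplnr, itself used for the high and low split, and Ptprb, an endothelial phosphatase. Nearest to Stab2 were Cdh4 (r = 0.98), Adh6b and Vsig2, and nearest to Mrc1 were Gpr182 (r = 0.98), a sinusoidal scavenging chemokine receptor, B130024G19Rik and Gm32688. Ctsl was most like Pard3 (r = 0.94), Grb10 and Fbxl7. Clca3a1 was most like Gata2 (r = 0.90), a blood and endothelial transcription factor, Pgm2 and Esam, and Ackr1 like St6galnac3 (r = 0.87), Clca3a1 itself and Podxl. Lrg1 was most like Card10 (r = 0.98), B430010I23Rik and Sirpa, Tfpi like Igfbp2 (r = 0.91), the clotting factor gene F8 and Bst2, and Adamts5 like Chst2 (r = 0.98), the endocytic adaptor gene Dab2 and Cttnbp2nl.

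Related genes of the same vessels did not all follow. Over all endothelial cells edgeR called 2.99% of genes lower and 3.82% higher in mutants, and the lists below are read against these shares. The lists too were chosen with earlier results of these data known. Of 13 sinusoid and venule genes tested, 6 fell and 1 rose, with a median of -0.61, and DESeq2 called 3 as lower and 0 as higher. The adhesion molecule gene Vcam1 stood at 532 and 380 CPM in controls against 61.5 and 113 CPM in mutants (-2.20), and the selectin gene Sele at 106 and 112 against 14.0 and 24.5 CPM (-2.28). Selp, Il6st, Maf and Gpr182 also fell, while Plvap, which forms the diaphragms of endothelial pores, rose from 876 and 872 to 1384 and 1390.3 CPM (0.68). The list thus moved in part with the members and in part against them.

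Of 12 other scavenger and endocytosis genes tested, 3 fell, 3 rose and 6 did not pass, with a median of -0.14 (1 lower and 2 higher by DESeq2). Cd36, a fatty acid and lipoprotein receptor, fell from 403 and 343 to 229 and 145 CPM (-1.05), and Ehd3, an endosomal recycling protein, by 1.03. Colec12, a collectin scavenger receptor, rose (1.85), and within libraries it was lower in high than in low cells (-1.38). Mrc2 had no UMI in either control and 4 and 133 UMIs in mutants, at 11.2 and 11.4 CPM. Of these, 4 and 120 UMIs lay in the Flt1+Aplnr-low cells. Osteolineage markers summed to 1292 and 6770 CPM in the low cells of mutant 1 and mutant 2, against 34.9 and 158 CPM in their high cells. What part RNA of other cells has in these rises was not tested. Of 11 lysosomal genes tested, 4 fell and 1 rose, while DESeq2 called 1 as lower and 0 as higher. The protease genes Lgmn (-0.91) and Ctsd (-0.78) fell, and Cst3, which encodes the cathepsin inhibitor cystatin C, rose (0.91). The median of -0.28 lay between that of all genes and that of the members.

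Of 10 anticoagulant and clotting genes tested besides Tfpi, 2 fell and 4 rose (1 and 2 by DESeq2). F8, which encodes clotting factor VIII, stood at 313 and 385 CPM in controls against 25.2 and 139.9 CPM in mutants (-1.99), and the thrombomodulin gene Thbd fell by 0.88. The plasminogen activator gene Plat rose (2.06), as did Entpd1 (1.56), which degrades extracellular ATP. Of 7 ADAMTS genes, substrates and inhibitors tested, Adamts1 fell (-0.79) and Vcan, which encodes versican, rose, while DESeq2 called 0 of the 7. Vcan had 0 and 3 UMIs in controls and 9 and 68 in mutants. Of these mutant UMIs, 9 and 49 lay in the Flt1+Aplnr-low cells. None of 13 endothelial TGF-beta pathway genes passed in either direction by edgeR or DESeq2, and 1 had an unadjusted edgeR p below 0.05. Of the 2 other atypical chemokine receptors tested, 0 passed by either tool, and 0 had an unadjusted p below 0.05. No other CLCA gene had enough UMIs to be tested.

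Lists of other vessel types held genes called as higher and none called as lower. Of 15 sprouting and metaphyseal vessel genes tested 11 rose by edgeR and 6 by DESeq2, among them Cd34 (1.78) and Apln (2.11), the ligand of the receptor used for the split. Of 11 arterial genes tested 6 rose by edgeR and 2 by DESeq2. Ly6c1 stood at 168 and 98.1 CPM in controls against 635 and 288 CPM in mutants (1.71), and Mgp at 11.7 and 3.88 CPM against 559 and 3.096 CPM, so that Mgp was high in mutant 1 only. The arterial list summed to 794 and 350 CPM in controls against 2111 and 678 CPM in mutants, so the genotypes overlapped, with control 1 above mutant 2. Cells with 3 or more of 5 arterial markers were 2, 1, 5 and 5 in control 1, control 2, mutant 1 and mutant 2. Without them 8 of the 9 members passed, with Stab1 at -0.71 (edgeR adjusted p = 0.067). Lymphatic markers summed to 540 CPM in mutant 1 and to 85.4 to 133 CPM in the other libraries. In mutant 1, Ccl21a gave 117 of the 193 UMIs of these markers, and 1 endothelial cell met the lymphatic marker rule. Lyve1 had 34 UMIs in mutant 1 against 0, 0 and 2 in control 1, control 2 and mutant 2. What part these other cells and vessel types have in the lower levels of the 9 genes was not tested.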

How the data were processed

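The authors deposited whole-number UMI counts for each gene in each barcode, not normalized, per the file headers. Reads were processed with Cell Ranger 5.0.1 (library 1 of each genotype) or 6.1.2 (library 2) on mm10, per the submitters' processing notes; the file headers name version 4 for both controls and mutant 2. The files of mutant 1 list 3352 barcodes of 501 or more UMIs, so free RNA could not be sampled there. Gene positions are from GENCODE M21. The members, lists and tests were chosen with earlier results of these data known.

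Cells were gated as described above, and doublets were kept; leaving out Scrublet-scored cells (scanpy 1.11.5, top 0.8% per 1000 cells) was an alternative. Counts were summed per library and compared in R 4.3.3 by the quasi-likelihood test of edgeR 4.0.16 (filterByExpr, TMM, Benjamini-Hochberg threshold 0.05), with batch and genotype, library and level, or their interaction as terms. SEs were derived from the F statistic. Genotype fits that left out 1 library had no batch term. DESeq2 1.42.0, other scalings, gates, splits and leaving out each library were alternatives, and the scripts were tested on simulated data. Intervals are exact and cover counting error only. Named genes are the 9 members, per list and comparison the 2 with the smallest p in each direction past the threshold, and the 3 most similar genes per member. Other genes named as examples of counts were chosen after their values were seen. CPM was not compared between genes.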

Additional observations from a re-analysis of the deposited data

Results flagged for a closer look

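For 4 genes the difference between Flt1+Aplnr-high and Flt1+Aplnr-low endothelial cells was itself different between the genotypes (edgeR, interaction of level and genotype). The interaction on the log2 scale, mutants minus controls, was 1.0536 for Stab1, 1.2022 for Mrc1, 1.1621 for Tfpi and 1.2422 for Adamts5. Without control 1, without mutant 1 or without cells that met the marker rule of another class none of the 4 passed, and without control 2 only Adamts5 did. With each library's own median as the cut only Adamts5 passed (edgeR adjusted p = 0.040). The main interaction fit had 2 residual and infinite prior degrees of freedom, and DESeq2 called none of the 9 members. Neutrophil markers differed between the low and the high cells of mutant 2, at 20421 and 4718 CPM, and their part in these interactions was not tested.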

How the results depend on the processing

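Over all endothelial cells 767 genes passed (edgeR). The number was 203 with DESeq2, 139 without the batch term, 355 with 4 of 5 gate genes, 6 with the gate without Emcn and Kdr, 459 without cells of other classes, and 5 (without control 2) to 394 (without mutant 1) when 1 library was left out. In high cells 41 passed, against 153 without a filter on low counts, 193 with each library's own median as the cut, 162 without cells of other classes and 71 to 118 without 1 library. In low cells 350 passed, against 144 with DESeq2, 564 without the filter, 127 without the batch term and 6 (without control 2) to 502 (without mutant 1). For high against low cells 604 passed, against 1540 without the filter, 379 with 4 of 5 gate genes, 3002 with the gate without Emcn and Kdr, 72 without cells of other classes, 84 without doublet-scored cells, 968 split by Flt1 alone, 208 by Aplnr alone, 50 at 3000 UMIs per cell, and 37 (without mutant 2) to 854 (without control 1). For the interaction 116 passed, against 23 with DESeq2, 64 with own medians, 31 without cells of other classes and 49 to 98 without 1 library.

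Reversals of sign were of values that had not passed, except Stab1 by genotype, at 0.13 with the gate without Emcn and Kdr. High against low, that gate turned Ctsl, Clca3a1 and Ackr1 to 0.59, 0.78 and 0.55. Without cells of other classes Stab2, Mrc1, Tfpi and Adamts5 turned to -0.11, -0.23, -0.055 and -0.022, and at 3000 UMIs per cell Stab2 and Mrc1 to -0.072 and -0.14. For the interaction, own medians gave Ctsl -0.13, Clca3a1 -0.53, Ackr1 -0.23 and Lrg1 -0.31. DESeq2 gave Ctsl -0.012, and leaving out cells of other classes gave Clca3a1 -0.12. Without 1 library Ctsl ranged from -0.13 to 0.29, Lrg1 from -0.34 to 0.53, Clca3a1 from -1.36 to 0.44 and Ackr1 from -2.43 to 1.06. The difference in the share of high cells was -4.73 points within batch 1 and 2.72 to 32.8 points without 1 library. The causes were not tested.

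The labels number no replicates. The batch rests only on the software version in the submitters' notes, and the file headers name another version for both controls and mutant 2. Each batch holds 1 library of each genotype, and the batch term in the genotype fits compares libraries within these batches. The values without the batch term above, and those of genotype fits without 1 library, are without this grouping. The 33 and 48 endothelial cells of control 1 and mutant 1 limit these comparisons, and genes at 1 to 12 UMIs in mutant 1 have wide counting intervals.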
